A study of Homo sapiens with 3 samples.

Results

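The genes described here are those of the hypoxia response and of glycolysis in 3 lines of C4-2B, an established human castration-resistant prostate cancer cell line. The list named 38 genes, and every probe set whose platform annotation gave one of these symbols was taken, whatever its value. Of the 38 genes, 35 were measured, out of 19776 genes in all, and SLC16A1, SLC16A3 and CA9 were not analysed here. The rule found 99 of 54675 probe sets. The gene values rest on the 92 probe sets annotated to 1 listed gene alone, and 10 genes had a single probe set.

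C4-2B MDVR cells were an enzalutamide-resistant subline kept in medium with 20 µM enzalutamide, which blocks the androgen receptor. C4-2B AbiR cells were an abiraterone-resistant subline kept in 10 µM abiraterone acetate, an inhibitor of androgen synthesis. C4-2B parental cells had no drug named in their medium and were passaged alongside the sublines as their control. Total RNA of each line was hybridized to 1 Affymetrix HG-U133 Plus 2.0 array, and the labels give no oxygen level. Since each resistant line is 1 subline on 1 array, drug, clonal drift and array cannot be told apart, and no test was possible.

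Each value is a log2 signal that the authors centred within its probe set, so it tells how the 3 arrays differ and not how strongly a gene was expressed. For the same reason the level of luminal prostate markers could not be checked, only their differences. Of 8 such markers 6 were measured. KLK3 differed from parental by −4.07 ± 3.23 in MDVR and by −3.17 ± 2.36 in AbiR, KLK2 by −1.29 ± 1.19 and −2.12 ± 1.93, and FOLH1, HOXB13, KRT8 and KRT18 by −0.10 to 0.37 and −0.13 to 0.30. The part of this shift in the values below was not tested. Each resistant line was set against the parental array, and MDVR was also set against AbiR. Both differences from parental share the 1 parental array. A ± value is the SD over a gene's probe sets, which measures technical spread and not replicate error. The array also has 45 spiked bacterial and phage control probe sets, which should not differ between lines. On these the largest absolute difference from parental was 0.35 in MDVR and 0.20 in AbiR, and the largest between MDVR and AbiR was 0.34.

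Cells sense oxygen through hypoxia-inducible factor (HIF), a pair of an alpha and a beta subunit. When oxygen is present, prolyl hydroxylases of the EGLN family mark the alpha subunit, and the VHL ubiquitin ligase then sends it for degradation, so that much of the control of HIF lies in the protein and not in the mRNA. When oxygen is low, HIF binds DNA at a short core sequence and activates genes for glucose uptake, glycolysis, lactate production, pH control and blood vessel growth. Many tumors also run glycolysis in the presence of oxygen, whereas differentiated luminal prostate cells are known for a citrate-secreting metabolism.

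Because HIF acts through a DNA core, the promoters of ALDOC, CA12, HK2 and ANKRD37, whose differences are among those that the results turn on, are shown. They are the 250 bases before a RefSeq transcription start on GRCh38.p14, written 5′ to 3′ on the gene's strand. Capitals mark the HIF core, either ACGTG or GCGTG, on either strand, so that CACGT and CACGC are capitalized too. ALDOC lies at chr17:28576896-28577145 (minus strand), CA12 at chr15:63381847-63382096 (minus strand), HK2 at chr2:74833877-74834126 (plus strand) and ANKRD37 at chr4:185396591-185396840 (plus strand).
ALDOC: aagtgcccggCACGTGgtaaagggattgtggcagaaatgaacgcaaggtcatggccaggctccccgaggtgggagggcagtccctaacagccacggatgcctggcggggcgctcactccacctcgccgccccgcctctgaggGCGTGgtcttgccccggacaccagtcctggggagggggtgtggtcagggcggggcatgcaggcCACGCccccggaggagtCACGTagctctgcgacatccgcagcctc
CA12: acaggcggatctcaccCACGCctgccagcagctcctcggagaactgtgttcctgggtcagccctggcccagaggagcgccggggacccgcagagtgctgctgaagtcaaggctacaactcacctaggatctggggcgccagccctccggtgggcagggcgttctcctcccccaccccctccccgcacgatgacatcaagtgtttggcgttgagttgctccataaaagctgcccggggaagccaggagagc
HK2: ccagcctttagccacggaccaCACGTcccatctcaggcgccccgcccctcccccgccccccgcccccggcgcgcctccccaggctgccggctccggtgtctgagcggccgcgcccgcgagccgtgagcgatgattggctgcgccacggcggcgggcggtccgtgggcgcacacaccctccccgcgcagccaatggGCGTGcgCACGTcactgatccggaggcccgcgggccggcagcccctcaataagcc
ANKRD37: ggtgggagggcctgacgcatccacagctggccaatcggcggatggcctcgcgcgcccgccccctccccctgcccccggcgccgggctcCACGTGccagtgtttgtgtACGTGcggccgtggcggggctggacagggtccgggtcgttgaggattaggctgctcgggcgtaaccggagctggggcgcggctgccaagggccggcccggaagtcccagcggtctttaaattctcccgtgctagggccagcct

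The ALDOC window held 5 core matches, those of HK2 and ANKRD37 held 3 each and that of CA12 held 1. Matches were counted on each strand, so a palindromic CACGTG counted on both although it is 1 site. The ALDOC and ANKRD37 windows each held 1 CACGTG, and the HK2 window shown held none. HK2 has another listed start, not shown, whose window at chr2:74834920-74835169 held 6 matches. These include 2 CACGTG sites counted on both strands. The promoter table matched 31 of the 35 measured genes, with 55 starts, and VEGFA was not among them. Of these 55 promoters, 31 (56.4%) held a core on either strand, against 43.2% of all 35116 promoters of the same length. ACGTG alone was found in 36.4% of the 55, against 18.5% of all. The palindrome CACGTG, which overlaps ACGTG on both strands and is also the E-box read by MYC and other factors, was found in 16.4%, against 6.34%. A match is a run of letters and was not tested as a binding site.

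Across the 35 listed genes, the median difference from parental was slightly above 0 in MDVR (0.11) and slightly below 0 in AbiR (−0.099). The median of MDVR minus AbiR was 0.24. Over all 19776 genes these medians were 0.044, −0.011 and 0.054. Both list medians from parental were smaller than 1 SD of the spiked control differences, which was 0.127 in MDVR and 0.102 in AbiR. That of MDVR minus AbiR was larger than its SD of 0.122. This SD is over single control probe sets and does not measure the spread of a median over 35 genes. Without the probe sets whose suffix (s, x or a) marks designs that may read several transcripts, 22 genes remained and the excess in MDVR ended. Their median difference from parental in MDVR was then 0.015, against 0.031 for all genes, with 12 of 22 above 0, against 55.5% of all genes. In AbiR minus parental 12 of the 22 were below 0, a share near the 52.2% of all genes. In MDVR minus AbiR 16 of the 22 were above 0, against 57.4% of all genes. With the suffixed probe sets kept, 29 of the 35 genes were above 0 in MDVR minus AbiR, against 59.9% of all genes. In MDVR minus parental, 26 were above 0, against 57.4% of all genes, and in AbiR minus parental 21 were below 0, against 52.4% of all genes. With arrays centred on the spiked hybridization controls, 22 were above 0 in MDVR minus parental and 26 below 0 in AbiR minus parental, and the shares of all genes were then 46.0% and 70.6%.

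Few single genes were far from 0. ALDOC and CA12 were at least 2-fold higher in MDVR minus parental, against 1.65% of all genes, and none of the 35 was at least 2-fold lower, against 1.67%. Without the suffixed probe sets the 2 genes were ALDOC and PFKP (1.04), since CA12 was then at 0.80. In AbiR minus parental none was at least 2-fold higher or lower, against 1.07% and 0.804% of all genes. In MDVR minus AbiR only ALDOC was at least 2-fold higher, against 0.875%, and none was at least 2-fold lower, against 1.13%.

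At 1.5-fold, 4 genes were higher in MDVR minus parental (ALDOC, CA12, PFKP and EPAS1) and EGLN1 was lower, against 4.81% and 5.15% of all genes. In AbiR minus parental, CA12 was higher and HIF1A, HK2, VEGFA and ANKRD37 were lower, against 3.32% and 2.52%. In MDVR minus AbiR, ALDOC, VEGFA and PFKP were higher and none was lower, against 2.77% and 3.96%. Some of these calls depend on the centring. With arrays centred on the spiked hybridization controls, EPAS1 (0.53 in MDVR minus parental) and CA12 (0.54 in AbiR minus parental) fell below 1.5-fold. EGLN1 (−0.67 in AbiR minus parental) then passed it, as did CA12 and ADM (both 0.59) in MDVR minus AbiR.

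**Figure D1:**
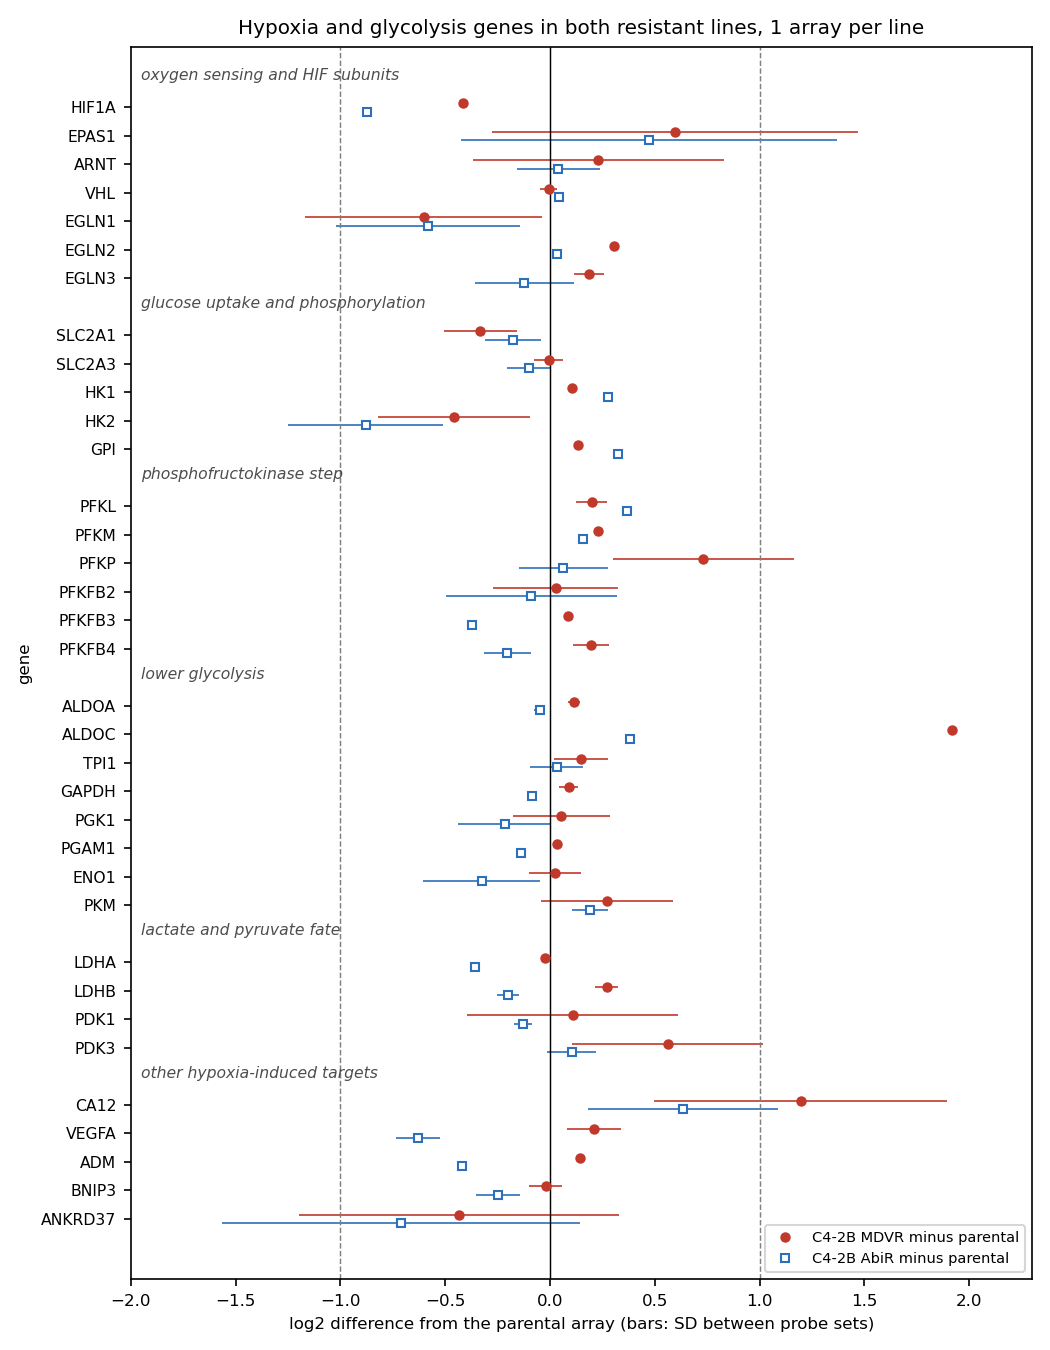
Log2 differences of the 35 hypoxia and glycolysis genes, grouped by role, for MDVR minus parental and AbiR minus parental, with 1 point per gene. ALDOC (1.92) and CA12 (1.20) lie beyond 2-fold for MDVR, and HK2 (−0.88) and HIF1A (−0.87) are the lowest for AbiR.

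Among the oxygen-sensing genes, the mRNA of the alpha subunit HIF1A was lower in AbiR cells, while that of the other alpha subunit EPAS1 and of the hydroxylase EGLN1 differed by an amount that varied with the probe set. HIF1A had 1 probe set, with centred log2 values of 0.084 in MDVR, −0.37 in AbiR and 0.50 in parental. Its 3 arrays were thus ordered with parental highest and AbiR lowest. HIF1A was 1.83-fold lower in AbiR than in parental (−0.87), and 1.05% of all genes were at least this much lower. It differed from parental by −0.42 in MDVR.

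EPAS1, which like HIF1A pairs with ARNT, had a mean difference from parental of 0.60 ± 0.87 in MDVR and of 0.47 ± 0.90 in AbiR (3 probe sets). The probe set 200878_at gave 0.047 in MDVR, −0.047 in AbiR and −1.54 in parental. The probe set 200879_s_at gave 0.19, 0.031 and −0.077 in the same order, and 241055_at gave −0.034, −0.15 and 0.034. The EPAS1 averages thus rest on 1 probe set that was low on the parental array alone.

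EGLN1, the main hydroxylase acting on HIF alpha subunits, averaged −0.60 ± 0.57 in MDVR minus parental and −0.58 ± 0.44 in AbiR minus parental (4 probe sets). The probe set 221497_x_at gave −0.093 in MDVR, −0.26 in AbiR and 0.71 in parental, and 224314_s_at gave −0.088, −0.15 and 0.72. The probe set 223046_at gave −0.80, −0.23 and 0.23, and 223045_at gave 0.24, −0.0085 and 0.0085. The parental array was thus highest on 3 of the 4 EGLN1 probe sets, and the remaining one had MDVR highest.

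The beta subunit ARNT split within MDVR (0.23 ± 0.60, 7 probe sets). Its probe sets 218222_x_at and 210828_s_at differed by 1.18 and 0.87 in MDVR minus parental, 230619_at by −0.53, and the other 4 by −0.20 to 0.19. On 218222_x_at the array values were 1.13 in MDVR, 0.050 in AbiR and −0.050 in parental. On 210828_s_at they were 0.88, −0.25 and 0.013, and on 230619_at they were −0.53, 0.35 and −0.0040. MDVR was thus the highest array on the first and the second of these and the lowest on the third. On 218221_at the values were −0.13, 0.027 and 0.063, and on 231016_s_at they were 0.048, −0.048 and −0.14. On 233714_at they were 0.031, −0.031 and 0.073, and on 233724_at 0.0016, −0.0016 and −0.13. No single direction describes ARNT in MDVR cells, and without the suffixed probe sets its mean turned to −0.16 in MDVR minus parental and to −0.24 in MDVR minus AbiR. In AbiR minus parental ARNT averaged 0.039 ± 0.20.

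The remaining sensors were close to 0 or slightly higher in MDVR. VHL, the receptor of the ligase that recognizes hydroxylated alpha subunits, differed from parental by −0.0057 ± 0.041 in MDVR and by 0.042 ± 0.0066 in AbiR. The hydroxylase EGLN2 differed by 0.31 and 0.033, and EGLN3, itself a HIF-induced gene, by 0.19 ± 0.071 and −0.12 ± 0.24. The median difference from parental of the 7 sensing genes was 0.19 in MDVR and 0.033 in AbiR.

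**Figure D2:**
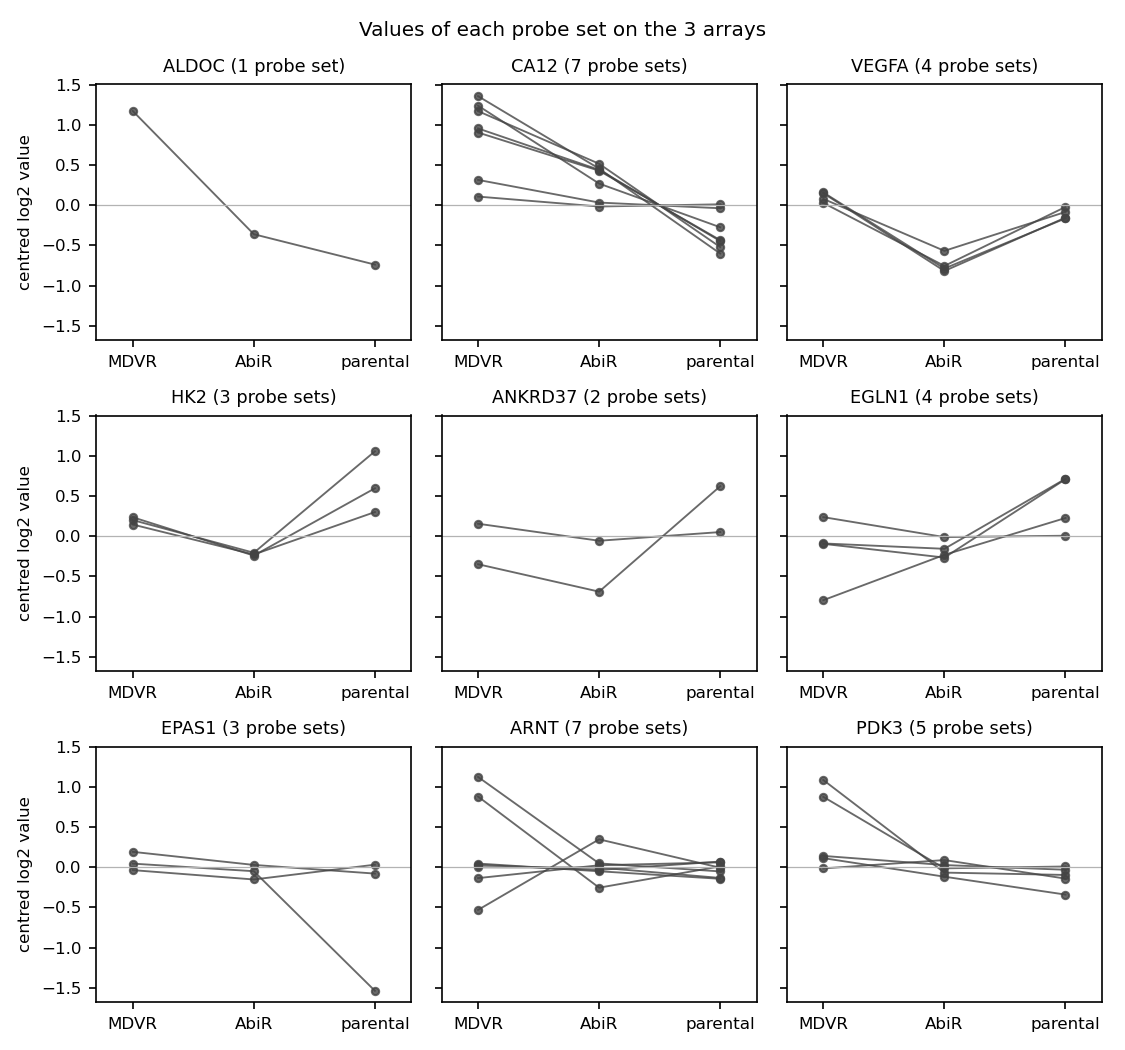
Centred log2 values on the MDVR, AbiR and parental arrays of single probe sets, with 1 line per probe set and 1 panel per gene, for ALDOC, CA12, VEGFA, HK2 and the genes whose probe sets disagreed. The lines of EPAS1, ARNT, EGLN1, PDK3 and ANKRD37 do not run together, while 6 of the 7 CA12 lines run down from MDVR through AbiR to parental, 1 of them by little.

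At the entry of glucose, the hexokinase HK2 was lower in both resistant lines than in parental cells. The transporter SLC2A1 was lower in both only within the spiked controls, and SLC2A3 stayed near 0. HK1 and GPI were higher in both lines, in AbiR beyond the largest spiked control difference of 0.20. HK2, which traps glucose in the cell by phosphorylating it, was 1.84-fold lower in AbiR (−0.88 ± 0.37, 3 probe sets), and 1.04% of all genes were at least this much lower. In MDVR it differed by −0.46 ± 0.36. On 202934_at the values were 0.20 in MDVR, −0.20 in AbiR and 1.06 in parental. On 239410_at they were 0.24, −0.24 and 0.60, and on 222305_at 0.15, −0.23 and 0.30. All 3 HK2 probe sets had parental highest and AbiR lowest.

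SLC2A1, the widely expressed glucose transporter, differed by −0.33 ± 0.17 in MDVR and by −0.18 ± 0.13 in AbiR. These SLC2A1 differences are within the largest spiked control difference of each comparison. SLC2A3, the high-affinity neuronal-type transporter, differed by −0.0064 ± 0.068 in MDVR and −0.10 ± 0.11 in AbiR. HK1, the hexokinase of most tissues, differed by 0.10 and 0.28, and GPI, which turns glucose phosphate into fructose phosphate, by 0.13 and 0.33. For HK1 and GPI the AbiR array was the higher of the resistant lines.

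At the phosphofructokinase step, the committed step of glycolysis, the platelet-type isoform PFKP was higher in MDVR cells and close to parental in AbiR cells. PFKP differed by 0.73 ± 0.43 in MDVR minus parental and by 0.063 ± 0.21 in AbiR minus parental (2 probe sets). The probe set 201037_at gave 0.93 in MDVR, 0.11 in AbiR and −0.11 in parental, and 240202_x_at gave 0.24, −0.27 and −0.18. MDVR was the highest array on both, by 0.67 ± 0.22 over AbiR. The liver-type PFKL differed by 0.20 ± 0.073 in MDVR and 0.37 ± 0.0087 in AbiR, and the muscle-type PFKM by 0.23 and 0.16.

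The PFKFB genes encode the enzymes that make and remove the main activator of phosphofructokinase. PFKFB3 had values of 0.044 in MDVR, −0.41 in AbiR and −0.044 in parental, and its AbiR minus parental difference was −0.37. PFKFB4 differed by 0.20 ± 0.087 in MDVR and −0.20 ± 0.11 in AbiR. PFKFB2 differed by 0.027 ± 0.30 and −0.089 ± 0.41. PFKFB3 and PFKFB4, both HIF-induced, were thus higher in MDVR than in AbiR, by 0.46 and 0.40 ± 0.20. Over the 6 genes of this step, the median difference from parental was 0.20 in MDVR and −0.013 in AbiR.

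In lower glycolysis, from aldolase to pyruvate kinase, all 8 genes had a positive MDVR minus parental difference, against 57.4% of all genes. Apart from ALDOC these differences were within the largest spiked control difference of 0.35. The count of 8 depends on the centring, since ENO1 was at −0.042 with arrays centred on the spiked hybridization controls. ALDOC, the aldolase isoform best known from brain, had 1 probe set with values of 1.18 in MDVR, −0.36 in AbiR and −0.74 in parental. It was 3.78-fold higher in MDVR than in parental (1.92), and 0.405% of all genes were at least this much higher. It differed by 0.38 in AbiR. ALDOC was also the most different of the 35 genes between the resistant lines, at 2.9-fold higher in MDVR than in AbiR (1.54). It has no second probe set against which this could be checked.

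ALDOA, the aldolase of most tissues, differed by 0.11 ± 0.029 in MDVR and −0.050 ± 0.027 in AbiR. GAPDH, often used as a loading control, differed by 0.088 ± 0.043 and −0.085 ± 0.0088, and its separate control probe sets for the 5′ end, the middle and the 3′ end gave 0.14, 0.12 and 0.092 in MDVR and −0.11, −0.067 and −0.050 in AbiR. TPI1, the triose phosphate isomerase, differed by 0.15 ± 0.13 and 0.032 ± 0.13. All of these are within the spiked controls.

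PGK1 and ENO1, classical HIF targets that encode phosphoglycerate kinase and enolase, were at 0.054 ± 0.23 and 0.024 ± 0.13 in MDVR minus parental and at −0.22 ± 0.22 and −0.33 ± 0.28 in AbiR minus parental. The AbiR value of ENO1 rests on 3 suffixed probe sets (−0.65 to −0.29), and its remaining probe set gave 0.026. PGAM1, the phosphoglycerate mutase, differed by 0.035 in MDVR and −0.14 in AbiR, and the pyruvate kinase PKM by 0.27 ± 0.31 and 0.19 ± 0.084. Over the 8 genes the median difference from parental was 0.10 in MDVR and −0.068 in AbiR. Near-identical copies can share probe signal, and RefSeq lists 65 pseudogenes named after GAPDH, 13 after PGAM1, 4 after ENO1 and 2 after PGK1. Their part in these values was not tested.

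At the fate of pyruvate, the lactate dehydrogenase genes were higher in MDVR than in AbiR, and the pyruvate dehydrogenase kinase PDK3 was higher in MDVR on some of its probe sets. LDHA, which turns pyruvate into lactate, had values of 0.070 in MDVR, −0.27 in AbiR and 0.093 in parental, so that AbiR was low and the other arrays were alike. Its differences were −0.023 in MDVR and −0.36 in AbiR. LDHB, whose product favors the reverse reaction, differed by 0.27 ± 0.054 and −0.20 ± 0.051, and by 0.47 ± 0.11 in MDVR minus AbiR. For LDHA that difference was 0.335, within the largest spiked control difference of 0.344. All probe sets of both genes carry a suffix of designs that may read several transcripts. RefSeq lists 6 pseudogenes named after LDHA and 3 after LDHB, and their part was not tested.

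PDK kinases switch off pyruvate dehydrogenase and so hold pyruvate back from the mitochondrion. PDK3 had a mean difference from parental of 0.56 ± 0.46 in MDVR and of 0.10 ± 0.12 in AbiR (5 probe sets). On 221957_at the values were 1.09 in MDVR, −0.065 in AbiR and −0.094 in parental, and on 206348_s_at they were 0.88, −0.011 and 0.011. On 230085_at they were 0.12, −0.12 and −0.34, on 206347_at 0.14, 0.029 and −0.029, and on 228959_at −0.012, 0.092 and −0.14. MDVR was the highest array on 4 of the 5, but by a wide margin on only 2.

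PDK1, the HIF-induced kinase, averaged 0.11 ± 0.51 in MDVR and −0.13 ± 0.042 in AbiR. Of its 3 probe sets, 206686_at was higher in MDVR by 0.68 and the others differed by −0.26 and −0.10. The median difference from parental of these 4 genes was 0.19 in MDVR and −0.16 in AbiR, and their median in MDVR minus AbiR was 0.40.

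The other hypoxia targets gave the widest separation of the resistant lines among the 6 role groups. Over 5 genes, the median difference from parental was 0.14 in MDVR and −0.42 in AbiR, and the median of MDVR minus AbiR was 0.56. A larger list of 33 other hypoxia-induced genes, given below, had a median of 0.086 in MDVR minus AbiR, near the 0.054 of all genes. CA12, a membrane carbonic anhydrase that helps control pH at the cell surface, was higher in both resistant lines. It averaged 2.29-fold higher in MDVR (1.20 ± 0.70) and 1.55-fold higher in AbiR (0.63 ± 0.45) over 7 probe sets, and 1.16% and 2.83% of all genes were at least this much higher. Without the probe sets of suffix s, x or a, CA12 differed from parental by 0.80 in MDVR and by 0.37 in AbiR, below 2-fold and below 1.5-fold.

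The CA12 probe sets fell into 5 with a wide difference and 2 with a small one. On 203963_at the values were 1.36 in MDVR, 0.46 in AbiR and −0.60 in parental, and on 204508_s_at they were 1.18, 0.52 and −0.52. On 210735_s_at they were 1.25, 0.27 and −0.27, on 215867_x_at 0.96, 0.44 and −0.44, and on 214164_x_at 0.91, 0.43 and −0.43. The order MDVR, AbiR, parental from high to low held on all 5. It held on 204509_at as well, with 0.32, 0.036 and −0.036, but not on 241230_at, with 0.11, −0.014 and 0.014.

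VEGFA, the main inducer of blood vessel growth, was lower in AbiR cells alone. The probe set 210512_s_at gave 0.15 in MDVR, −0.82 in AbiR and −0.15 in parental, and 211527_x_at gave 0.16, −0.79 and −0.16. The probe set 210513_s_at gave 0.031, −0.76 and −0.019, and 212171_x_at gave 0.082, −0.57 and −0.082. On all 4 the AbiR array was lowest. VEGFA was 1.55-fold lower in AbiR than in parental (−0.63 ± 0.11) and differed by 0.21 ± 0.13 in MDVR, within the spiked controls. Between the resistant lines it was 1.79-fold higher in MDVR than in AbiR (0.84 ± 0.15), and 1.22% of all genes were at least this much higher. All 4 of its probe sets carry a suffix of designs that may read several transcripts.

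ADM, which encodes the vasodilator peptide adrenomedullin, had a like order, with 0.071 in MDVR, −0.49 in AbiR and −0.071 in parental on its 1 probe set. ADM thus differed from parental by 0.14 in MDVR and by −0.42 in AbiR. BNIP3, a mitochondrial protein of mitophagy, differed by −0.022 ± 0.077 and −0.25 ± 0.10. RefSeq lists 46 pseudogenes named after BNIP3, and their part in its signal was not tested.

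ANKRD37, an ankyrin-repeat gene induced by HIF, had a mean difference from parental of −0.43 ± 0.76 in MDVR and of −0.71 ± 0.85 in AbiR. Its probe sets disagreed: 227337_at gave −0.35 in MDVR, −0.69 in AbiR and 0.63 in parental, whereas 242548_x_at gave 0.16, −0.054 and 0.054. The lower ANKRD37 value of the resistant lines rests on the first of these, and on both of them MDVR was above AbiR.

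Set directly against each other, the resistant lines differed most, by role-group median, at the lactate and pyruvate genes and at the other hypoxia targets. All 8 genes of lower glycolysis, all 4 of lactate and pyruvate fate and all 5 of the other hypoxia targets were higher in MDVR than in AbiR. Of all genes, 59.9% were higher. Among the 29 listed genes above 0, only 12 were beyond the largest spiked control difference of 0.34. After ALDOC and VEGFA came PFKP (0.67 ± 0.22), CA12 (0.56 ± 0.31) and ADM (0.56). LDHB, PFKFB3, PDK3 and HIF1A lay between 0.46 and 0.47, HK2 was at 0.42 ± 0.053, PFKFB4 at 0.40 ± 0.20 and ENO1 at 0.35 ± 0.29. Without its suffixed probe sets ENO1 turned to −0.069. PDK3 (± 0.54) and CA12 varied most among these between probe sets. The 6 genes below 0 were GPI (−0.19), HK1 (−0.17), PFKL (−0.17 ± 0.065), SLC2A1 (−0.16 ± 0.039), VHL (−0.047) and EGLN1 (−0.020 ± 0.37), none beyond the spiked controls. 3 of these 6 act in glucose uptake and phosphorylation, where the median of MDVR minus AbiR was −0.16.

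**Figure D3:**
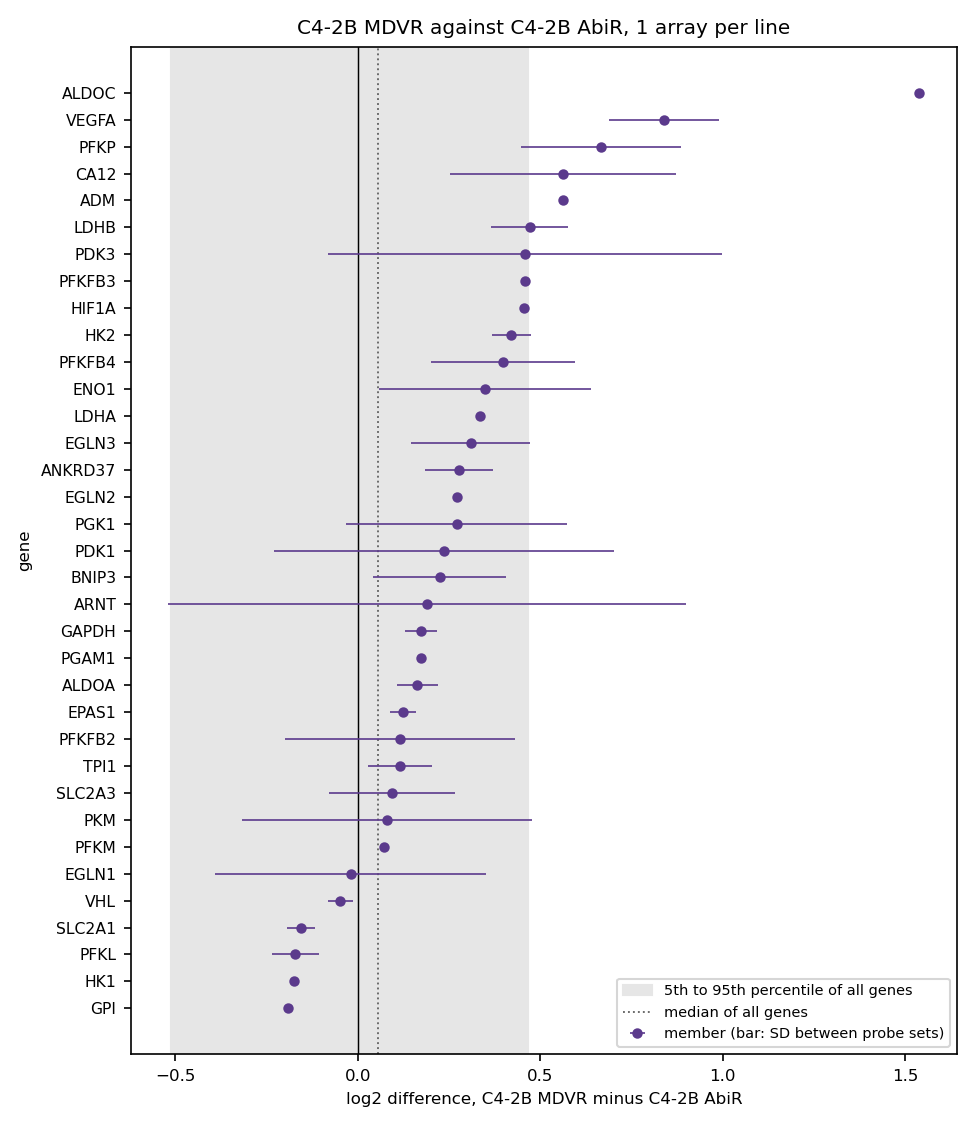
MDVR minus AbiR log2 differences of the 35 genes in order, with the SD between probe sets as bars where a gene had 2 or more probe sets. Of the 35 genes, 29 lie above 0, ALDOC highest at 1.54, and the lowest, GPI, is at −0.19.

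A further 89 genes of the same pathways were followed, of which 85 were measured, and the others were not analysed here. As a whole these 85 genes stayed near all genes, with a median difference from parental of 0.069 in MDVR and 0.0014 in AbiR, and a median of 0.065 in MDVR minus AbiR. At least 2-fold higher than parental were 3 of the 85 genes in MDVR (PGM1, ENO2 and DDIT4), against 1.65% of all genes, and 3 in AbiR (PGM1, ENO2 and INSIG2), against 1.07%. At least 2-fold lower were 3 in MDVR (MPC2, SLC16A7 and GBE1), against 1.67%, and 2 in AbiR (MPC2 and TMEM45A), against 0.804%. In MDVR minus AbiR, 3 were higher (PGM1, DDIT4 and TMEM45A), against 0.875%, and none was lower, against 1.13%.

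PGM1, ENO2 and MPC2 differed from parental by more than any of the 35 genes, in MDVR and in AbiR alike. PGM1, which links glycogen to glycolysis by converting glucose phosphates, had values of 0.93 in MDVR, −0.49 in AbiR and −2.20 in parental. It was 8.75-fold higher in MDVR and 3.28-fold higher in AbiR than in parental. ENO2, the neuronal enolase, had values of 0.0026 in MDVR, 0.055 in AbiR and −2.80 in parental, so that the parental array alone was low. PGM1 and ENO2 were each read by 1 probe set, so neither difference could be checked on a second one.

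MPC2, a subunit of the carrier that brings pyruvate into mitochondria, was lower in both lines, with mean values of −0.53 in MDVR, −0.017 in AbiR and 1.81 in parental. Over its 2 probe sets MPC2 was below parental by 5.05-fold in MDVR (−2.34 ± 0.94) and by 3.55-fold in AbiR (−1.83 ± 0.29). The monocarboxylate transporter SLC16A7 differed from parental by −1.08 ± 0.54 in MDVR and by −0.23 ± 0.14 in AbiR (5 probe sets). All 5 were below 0 in both comparisons with parental.

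Among other hypoxia-induced genes, DDIT4, an inhibitor of mTOR signaling, had values of 0.75 in MDVR, −0.62 in AbiR and −0.35 in parental, and was 2.15-fold higher in MDVR than in parental. TMEM45A, a transmembrane protein gene, had 1.20, −0.57 and 0.57 in the same order, and was 2.22-fold lower in AbiR than in parental. For both genes MDVR was the highest array and AbiR the lowest. INSIG2, a brake on sterol synthesis, was above parental by 0.65 in MDVR and 1.04 in AbiR. GBE1, the glycogen branching enzyme, differed by −1.01 in MDVR and by −0.49 in AbiR. Each of these 4 genes was read by 1 probe set.

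Of the sublists of the 85 genes, the other glycolytic enzymes had the highest median in MDVR. The 17 other glycolytic enzymes and isoforms had a median difference from parental of 0.15 in MDVR and 0.052 in AbiR, with 15 and 11 above 0, against 57.4% and 47.4% of all genes. The 33 other hypoxia-induced genes had 0.094 and 0.016, and the 13 HIF partners −0.0077 and −0.037. In MDVR minus AbiR the 33 genes had a median of 0.086, with 21 above 0, against 59.9% of all genes. The 11 genes of pyruvate entry had 0.0078 and −0.034, and the 11 other transporters 0.030 and 0.0097.

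**Figure D4:**
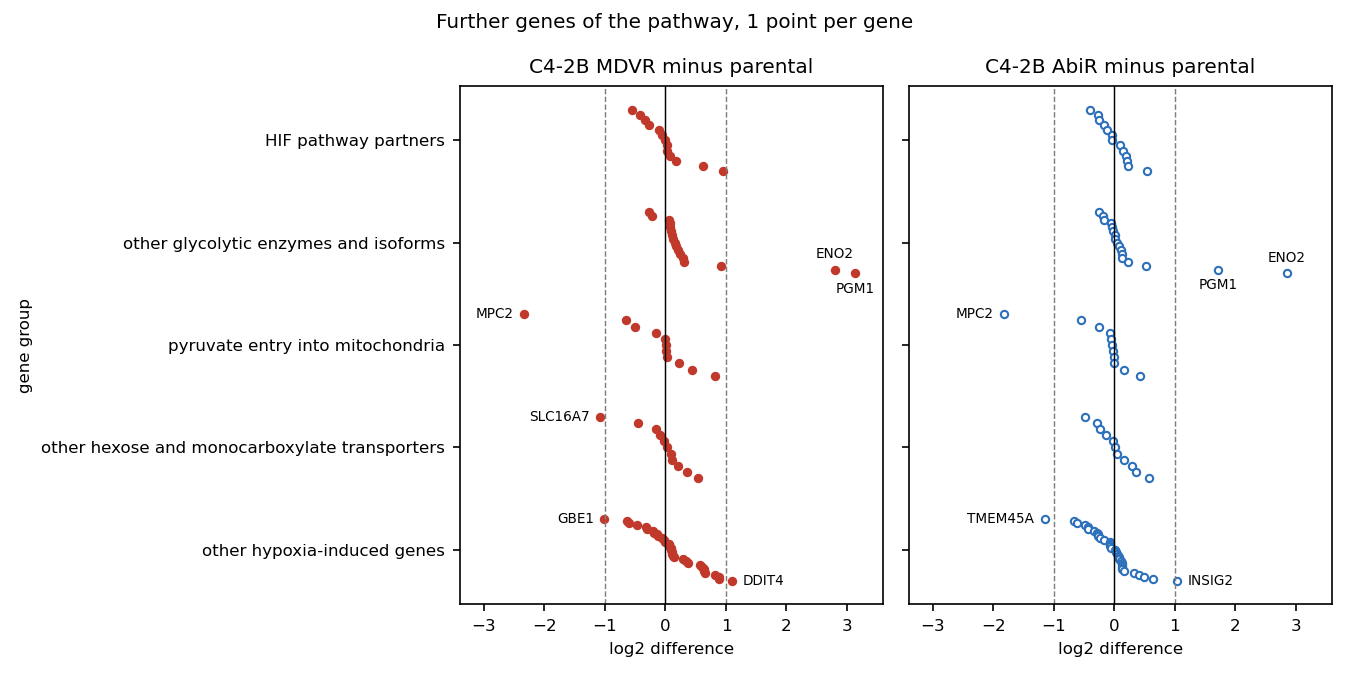
Log2 differences of the 85 further pathway genes by sublist, for MDVR minus parental and AbiR minus parental, with 1 point per gene and dashed lines at 2-fold. Most points lie between the dashed lines, and those outside are named, among them PGM1 (3.13 and 1.71), ENO2 (2.80 and 2.85) and MPC2 (−2.34 and −1.83).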

How the data were processed

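Total RNA of C4-2B MDVR, AbiR and parental cells was hybridized to 1 array each, and the sample titles gave the groups. The authors deposited RMA log2 values (background-corrected, normalized between arrays and summarized per probe set), centred for each probe set. The RMA version and the reference used for centring are not given in the sources used here. In 53.4% of probe sets 2 of the 3 values mirrored each other around 0 (tolerance 2e-06). Centring removes the expression level and leaves differences between arrays intact.

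Gene names came from the platform's annotation, and the gene ID was found in RefSeq for 99.9% of those with 1 symbol. A gene's value was the mean of the probe sets annotated to it alone, with control probe sets left out. Log2 differences were computed with Python 3.11.15, pandas 2.3.3 and numpy 2.4.6, and drawn with matplotlib 3.10.9. The scripts were tested on simulated data. With 1 array per line no test was made and no p-value is given, and genes beyond 2-fold or 1.5-fold were counted as a description. The number of arrays limits the precision.

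Among the 35 genes, all probe sets are given for those at least 2-fold different in any comparison or with probe sets at least 1 log2 unit apart. The others are given by their means, with some probe sets added after their values were seen (HK2, PFKP, PDK1, ENO1 and VEGFA). Further pathway genes are named where at least 2-fold different. The genes, lists and rules were chosen with earlier results of these data known. Alternatives were other centrings of the arrays, other probe sets, the median over probe sets and the 1.5-fold threshold. Promoter windows came from RefSeq on GRCh38.p14 and were not linked to probe positions.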

Additional observations from a re-analysis of the deposited data

Results flagged for a closer look

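DDIT4 and TMEM45A lay on opposite sides of 0 in the resistant lines, beyond the largest spiked control difference on each side. DDIT4 differed by 1.10 in MDVR minus parental and by −0.27 in AbiR minus parental, which are 1.37 apart on the log2 scale. TMEM45A differed by 0.63 in MDVR minus parental and by −1.15 in AbiR minus parental, which are 1.78 apart. Each rests on 1 probe set and 1 array per line, and the difference between the lines was not tested.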

How the results depend on the processing

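With 1 array per line there were no replicates to leave out. No paired analysis was possible because each group has 1 array and no test was made. At 1.5-fold in place of 2-fold, the genes higher numbered 4 in MDVR minus parental, 1 in AbiR minus parental and 3 in MDVR minus AbiR. The genes lower numbered 1, 4 and 0. With arrays centred on the spiked hybridization controls, these 1.5-fold counts were 3, 0 and 5 higher and 1, 5 and 0 lower. With the median of the probe sets they were 3, 1 and 3 higher and 0, 5 and 0 lower. Without the probe sets whose suffix (s, x or a) marks designs that may read several transcripts, 22 of the 35 genes remained, and ANKRD37 was the 1 gene at least 2-fold lower in AbiR minus parental (−1.32). In MDVR minus parental PFKP (1.04) passed 2-fold and CA12 (0.80) no longer did, and ENO1 and ARNT turned direction in MDVR minus AbiR (−0.069 and −0.24). In that setting the median of MDVR minus parental was 0.015, below the 0.031 of all genes, so the small excess of the list in MDVR ended. The cause was not tested. The medians of AbiR minus parental (−0.093) and MDVR minus AbiR (0.25) kept their direction. In AbiR minus parental, however, 12 of the 22 genes were below 0, near the 52.2% of all genes. In MDVR minus AbiR 16 of the 22 were above 0, against 57.4% of all genes.

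With arrays centred on the spiked hybridization controls, the median difference of the list from parental was 0.048 in MDVR and −0.19 in AbiR, its median in MDVR minus AbiR was 0.26, and those of all genes were −0.022, −0.10 and 0.080. Another centring of the arrays shifts all genes of a comparison by the same amount, so the 35 genes are not separate checks of it. Small differences could still change sign, as ENO1 did in MDVR minus parental (0.024 to −0.042 with the hybridization controls). Of 105 differences (35 genes in 3 comparisons), 105 moved by less than 1 SD of the spiked controls under either centring of the arrays. With the median of the probe sets in place of the mean, 94 did and 11 moved further. With joint and control probe sets added, 103 did and 2 moved further. Without the suffixed probe sets, 44 of 66 did and 22 moved further. Signal over background is lost with the centring, so a weakly expressed gene and an unchanged gene could look alike.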
